A study of Mus musculus with 24 samples.

Results

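The beta-defensin (Defb) genes were followed in male germ cells of adult mice that were wild type (WT) or labelled Nutm1_KO (KO). The genes were chosen by symbol, as every gene of the array's probe annotation whose symbol starts with Defb, and then selected on the detection p-values deposited with the intensities. The array carries 42 such genes, read by 50 probes, among 19057 genes with a symbol. Detected means a detection p under 0.01. Of the 12 arrays described below, 1 or more detected 11 of these genes, and 3 or more detected 10, which were tested. The set was proposed with results of the KO against WT comparison known, so the counts over its members describe these genes and are not an independent test of them.

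All mice were adult males of a mixed B6/129sv background. Each of the 4 groups, KO round spermatids, WT round spermatids, KO spermatocytes and WT spermatocytes, has 6 arrays of total RNA. Spermatocytes are cells in meiosis, and round spermatids are the haploid cells that follow. Both were enriched by sedimentation of testis cell suspensions through a gradient of bovine serum albumin, in 3 separate fractionations per genotype, each from 2 pooled WT mice or 3 pooled KO mice. Replicates 1 to 3 of a group are these fractionations and carry every comparison below. Replicates 4 to 6 are mixtures of their RNA. The labels call the mutant a knockout, whereas the design text speaks of a knock down of Nut, the protein encoded by Nutm1. The files do not say which part of the gene was altered.

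Beta-defensins are small secreted cationic peptides with a conserved framework of cysteines joined by disulfide bonds. They disrupt the membranes of microbes, and some also act as ligands of the chemokine receptor CCR6 on immune cells. In the male tract many members are made by the epididymis, where some coat the sperm surface and take part in sperm maturation, and CCR6 has also been described on sperm. The genes lie in a few tandem clusters.

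Of the 42 genes, 23 lie on chromosome 8, 11 on chromosome 2, 5 on chromosome 14 and 3 on chromosome 1 (GRCm38.p6, RefSeq). The cluster on chromosome 2 spans 152459055 to 152623053 and gave 6 detected genes, Defb19, Defb20, Defb21, Defb22, Defb36 and Defb45. The genes on chromosome 8 lie between 18974914 and 21948622, and 4 were detected, Defb11, Defb14, Defb15 and Defb33. On chromosome 14, between 62977524 and 63048606, Defb30 was the only gene detected, and on chromosome 1 none was. Defb14, Defb19, Defb30, Defb33 and Defb36 were detected on all 12 arrays. All 10 tested genes were detected on each of the 3 WT round spermatid arrays, against 7 on all KO round spermatid arrays, 6 on all WT spermatocyte arrays and 5 on all KO spermatocyte arrays.

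**Figure D1:**
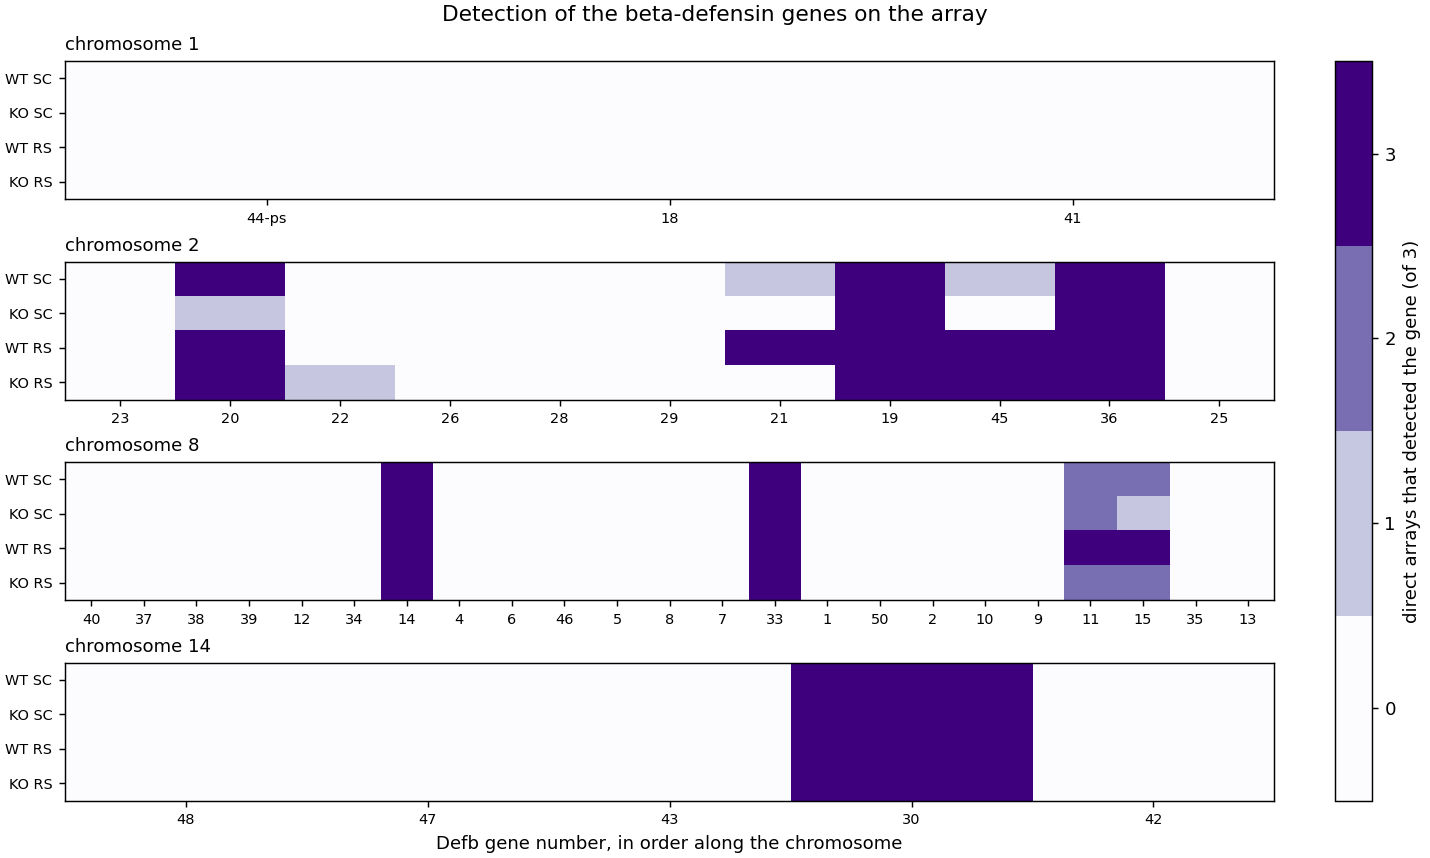
Number of direct arrays (0 to 3, shade) with a detection p under 0.01 for each of the 42 Defb genes on the array, in order along 4 chromosomes (x axis, gene number), in the 4 groups (rows; SC, spermatocytes; RS, round spermatids). Most genes were not detected on any array, and Defb21 was detected on all 3 WT round spermatid arrays and on 1 other array.

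The 31 genes not detected on any of the 12 arrays are Defb18, Defb41 and the pseudogene Defb44-ps on chromosome 1, Defb23, Defb25, Defb26, Defb28 and Defb29 on chromosome 2, and Defb42, Defb43, Defb47 and Defb48 on chromosome 14. On chromosome 8 they are Defb1, Defb2, Defb4 to Defb10, Defb12, Defb13, Defb34, Defb35, Defb37 to Defb40, Defb46 and Defb50. At the edge of the threshold, Defb21 was the tested gene detected on the fewest arrays (4), whereas Defb22 was detected on 1 array, the first of the KO round spermatids, by both of its probes, and was not tested.

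The RefSeq table of sequences around gene starts, from 250 bases before to 50 after a start, matched 8 of the 10 tested genes, with 2 starts for Defb21, and held none for Defb14 and Defb19. The stretches are shown for Defb33 and Defb21, whose signals differed most between the genotypes, and for Defb30 and Defb15, which hold a match to TATAAA. Each is given on its gene's strand from 5′ to 3′ (GRCm38.p6). They are those of Defb33 at chr8:20892417-20892716 (plus strand), the upstream start of Defb21 at chr2:152572493-152572792 (plus strand), Defb30 at chr14:63037797-63038096 (minus strand) and Defb15 at chr8:21932661-21932960 (minus strand). Capitals mark matches to TATAAA or TGACG on either strand.
Defb33: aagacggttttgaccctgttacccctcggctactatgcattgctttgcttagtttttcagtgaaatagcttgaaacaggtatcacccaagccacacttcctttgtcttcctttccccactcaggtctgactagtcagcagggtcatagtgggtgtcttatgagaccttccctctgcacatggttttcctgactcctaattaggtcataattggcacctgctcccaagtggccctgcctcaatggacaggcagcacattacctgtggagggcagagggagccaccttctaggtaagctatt
Defb21: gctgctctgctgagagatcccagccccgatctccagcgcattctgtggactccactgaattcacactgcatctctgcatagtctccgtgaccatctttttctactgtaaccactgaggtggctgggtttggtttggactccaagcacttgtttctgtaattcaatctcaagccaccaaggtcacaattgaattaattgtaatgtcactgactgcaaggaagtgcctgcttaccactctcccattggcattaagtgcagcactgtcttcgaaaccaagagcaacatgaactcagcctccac
Defb30: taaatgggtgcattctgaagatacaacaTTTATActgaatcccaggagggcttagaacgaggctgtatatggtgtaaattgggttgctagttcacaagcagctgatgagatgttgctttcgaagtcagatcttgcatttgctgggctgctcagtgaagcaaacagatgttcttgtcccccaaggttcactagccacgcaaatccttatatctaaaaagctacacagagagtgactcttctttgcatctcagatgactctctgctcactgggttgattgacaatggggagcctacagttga
Defb15: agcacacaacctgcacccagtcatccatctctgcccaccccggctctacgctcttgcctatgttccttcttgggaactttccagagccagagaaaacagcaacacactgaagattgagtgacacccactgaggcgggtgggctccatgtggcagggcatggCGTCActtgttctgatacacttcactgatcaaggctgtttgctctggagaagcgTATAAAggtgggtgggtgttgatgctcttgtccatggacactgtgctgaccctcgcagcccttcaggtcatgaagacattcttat

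TGACGTCA, the full cAMP response element, on which germ cell activators of the CREM family are known to act, was in 0 of these 9 stretches and in 1.79% of the 32851 stretches of that length in the table. TGACG, the first letters of that element, was in the stretches of 2 genes, Defb45 (on the gene's own strand) and Defb15 (on the opposite strand), and in 20.8% of the table. TATAAA, the core of the TATA box, was in the stretches of 2 genes and in 13.6% of the table. In Defb15 it lay on the gene's strand with its first base at -35 from the start, and in Defb30 on the opposite strand at -222. No match to these letters was in the stretches of Defb33 or Defb21. A match is a description of the letters and shows no binding.

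Signals are given after background correction and quantile normalization of the probe intensities (neqc of limma) on the log2 scale, and levels of different genes are not compared, because each comes from its own probe. The direct arrays had median intensities of 136 to 171 and detected 13849 to 16244 of 45281 probes. Nutm1 itself, read by 1 probe, was lower in KO round spermatids by a log2 difference of -1.50 (SE 0.24, adjusted p = 0.00156, limma), and its difference in spermatocytes was -0.65 (adjusted p = 0.546). The labelled stages matched their markers in part. In WT, 8 of 9 measured round spermatid markers were higher in round spermatids, against 28.4% of all features. Of 10 measured spermatocyte markers 5 were lower there, against 31.9% of all features, and 1 was higher. The higher one, Syce2, was detected on no direct spermatocyte array, and Sycp3 and Hormad1 were not detected. The KO spermatocyte arrays differed widely in their mean signal over 5 measured Leydig cell markers. It was 11.996, 7.48 and 9.52 on replicates 1 to 3, against 10.04, 10.68 and 9.67 on the WT spermatocyte arrays. The mixed arrays matched their labels poorly. Over all features tested, the labelled pair of direct arrays was the nearest of the 3 pairs of its group for 6 of 12 mixed arrays.

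KO and WT round spermatids were compared to find transcripts that differ once the cells are haploid. Of the 10 tested beta-defensin genes 6 were lower in KO and 0 were higher at an adjusted p under 0.05 (limma, Benjamini-Hochberg over 12705 features). Of all features tested, 7.99% were lower and 6.89% were higher. The KO arrays lay wholly below the WT arrays for 8 of the 10 genes, against 17.3% of all features. The median log2 difference was -1.41 over the 10 genes, whose differences ran from -3.69 to -0.32, and 0.12 over all features. A smaller share of cells that express a gene and less RNA per cell cannot be told apart in these fractions.

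Defb33 (chr8:20892667-20897723) showed the largest difference. Its signal was 9.81, 8.98 and 9.08 on the KO round spermatid arrays and 12.99, 12.84 and 13.11 on the WT arrays. The highest KO array lay about 3 log2 units below the lowest WT array. The log2 difference was -3.69 (SE 0.26, adjusted p = 2.64e-06), a 12.9-fold lower signal, and it stayed between -3.95 and -3.53 when any 1 round spermatid array was left out. The non-normalized intensities were 976, 578 and 623 in KO and 9419, 8840 and 10052 in WT.

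Defb21 (chr2:152572743-152574944) was not detected on any KO round spermatid array, where its signal was 4.45, 4.51 and 4.46. The WT arrays read 7.60, 8.50 and 7.59, all of them detected. The log2 difference was -3.42 (SE 0.26, adjusted p = 4.32e-06). With the KO arrays at their detection limit the signal was at least 5.22-fold lower in KO. Because 3 of its 4 detections came from WT round spermatids, Defb21 passed the filter only through the group in which it was high and had to differ. Each of the other 9 tested genes was detected on at least 4 arrays outside that group.

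Defb11 and Defb15 lie close together on chromosome 8, at chr8:21905374-21906432 and chr8:21929813-21932710. Defb11 read 4.65, 7.20 and 6.16 in KO and 8.42, 7.92 and 8.67 in WT round spermatids, and the groups did not overlap. Its log2 difference was -2.34 (SE 0.57, adjusted p = 0.0179), and the call was lost without KO replicate 1 (-1.66, adjusted p = 0.0598), without KO replicate 3 (-2.42, adjusted p = 0.0504) and without WT replicate 3 (-2.17, adjusted p = 0.0692). Without KO replicate 2 the difference was -2.93. Defb15 read 5.16, 5.89 and 5.57 in KO and 7.17, 6.81 and 7.64 in WT, again with no overlap. Its log2 difference was -1.67 (SE 0.35, adjusted p = 0.00818), and it passed with any 1 array left out. In both genes the first KO array was below detection. Probe sequences were not used here, so signal shared between near-identical members of the family could not be separated.

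Defb30 (chr14:63034087-63037846) read 7.61, 8.47 and 7.31 in KO and 9.37, 9.68 and 9.36 in WT round spermatids. No KO array reached the lowest WT array. The log2 difference was -1.68 (SE 0.38, adjusted p = 0.0119), and the call was lost without KO replicate 3 (-1.43, adjusted p = 0.0585) or WT replicate 2 (-1.57, adjusted p = 0.0522).

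Of the other genes of the chromosome 2 cluster, Defb36 (chr2:152604327-152612729) was lower in KO round spermatids. Its brighter probe read 8.04, 9.05 and 8.80 in KO and 9.78, 9.12 and 9.63 in WT, so that the second KO array came close to the lowest WT array. The log2 difference was -0.88 (SE 0.26, adjusted p = 0.04). The call was lost without KO replicate 1 (-0.59, adjusted p = 0.141), KO replicate 3 (adjusted p = 0.0761), WT replicate 1 (adjusted p = 0.0976), WT replicate 3 (adjusted p = 0.122) or replicate 2 of the KO spermatocytes (adjusted p = 0.0515). It was also lost with the replicate number as a block (adjusted p = 0.0578), with no detection filter (adjusted p = 0.0661) and with the round spermatid arrays fitted alone (adjusted p = 0.065). The second probe of Defb36 gave -0.92 (SE 0.21, adjusted p = 0.0146) with every probe tested on its own. Without KO replicate 3 the count of lower genes fell from 6 to 3, Defb15, Defb21 and Defb33.

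Defb45 (chr2:152593191-152596485) and Defb20 (chr2:152477063-152479934) did not pass. Defb45 read 5.58, 6.85 and 6.84 in KO and 7.37, 7.40 and 6.99 in WT round spermatids. Its arrays did not overlap, but the difference of -0.83 had an adjusted p of 0.122. Defb20 read 5.93, 6.33 and 6.12 in KO and 5.94, 6.64 and 6.78 in WT, groups that overlapped (-0.32, adjusted p = 0.389).

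Defb14 and Defb19, each with a known role or cell of origin outside the germ line, did not pass either. Defb14 (chr8:19160244-19195309), the mouse counterpart of a human skin beta-defensin that kills bacteria and acts on CCR6, read 10.01, 7.16 and 9.84 in KO and 8.87, 11.26 and 10.18 in WT round spermatids. The arrays overlapped widely, and the difference of -1.10 (SE 0.80, adjusted p = 0.371) shrank to -0.18 without KO replicate 2 and grew to -1.72 without WT replicate 1. Defb19 (chr2:152576086-152580312), known from Sertoli cells of the testis, read 9.29, 9.97 and 10.19 in KO and 11.12, 10.72 and 11.05 in WT. Its arrays did not overlap, and its difference was -1.15 (SE 0.66, adjusted p = 0.254). It passed without replicate 1 of the KO spermatocytes (adjusted p = 0.0444) and with the round spermatid arrays fitted alone (adjusted p = 0.0179).

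**Figure D2:**
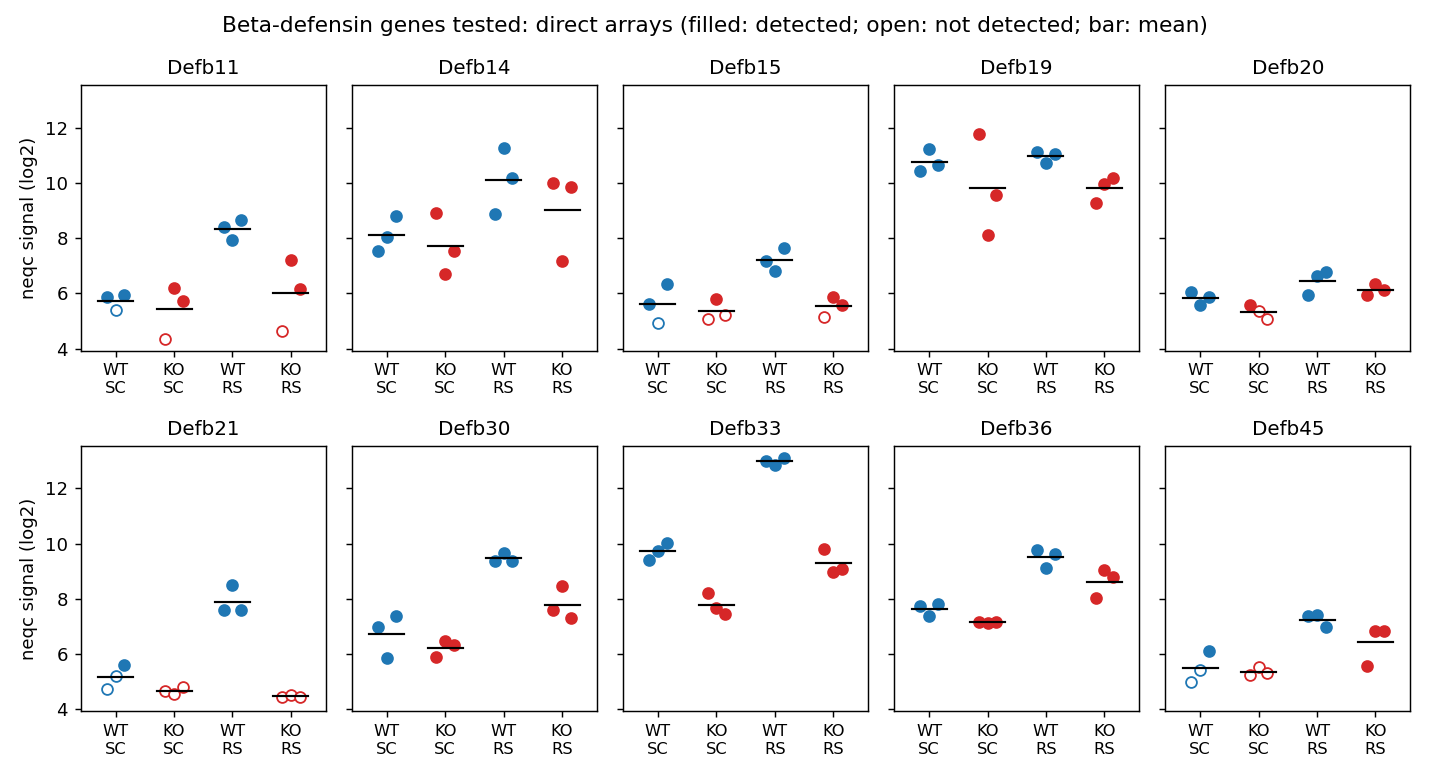
Neqc signal (log2, y axis) of the 10 tested Defb genes on each direct array (points; 3 per group; SC, spermatocytes; RS, round spermatids), filled where detected and open where not, with the group mean as a bar. The mean was highest in WT round spermatids for each gene, and Defb14 and Defb19 show the widest spread between the KO arrays of a stage.

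The sizes of these differences depended on how the intensities were processed, and the background correction was not varied on its own. On the authors' processed intensities, from which no background is subtracted, the same 6 genes passed, with log2 differences of -3.46 for Defb33, -1.50 for Defb21, -1.23 for Defb11, -1.27 for Defb30, -0.71 for Defb15 and -0.72 for Defb36. With cyclic loess in place of quantile normalization, which moved the median of all features from 0.12 to -0.02 and the share of lower calls from 53.7% to 76.3%, the same 6 passed.

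In spermatocytes the family was lower in KO in 1 gene, Defb33. Its signal was 8.22, 7.66 and 7.47 on the KO arrays and 9.41, 9.73 and 10.02 on the WT arrays, which did not overlap. The log2 difference was -1.93 (SE 0.26, adjusted p = 0.00283), 3.82-fold. It was -2.15 (adjusted p = 0.00228) without KO replicate 1, the array with the highest Leydig cell marker mean. The call also held without KO replicate 2, the array with the lowest. Of all features 0.645% were lower in KO. The spermatocyte arrays did not overlap for 2 of the 10 genes, Defb33 and Defb36, against 5.3% of all features. Defb36 read 7.15, 7.14 and 7.17 in KO and 7.74, 7.37 and 7.82 in WT and did not pass (-0.49, adjusted p = 0.795). The median difference was -0.49 over the 10 genes and -0.00030 over all features.

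The other 8 genes overlapped between the genotypes in spermatocytes. Defb30 read 5.90, 6.47 and 6.33 in KO and 6.99, 5.85 and 7.40 in WT (-0.51, adjusted p = 0.912). Defb20 read 5.58, 5.37 and 5.06 in KO and 6.07, 5.57 and 5.87 in WT (-0.50, adjusted p = 0.763). Defb11 read 4.36, 6.20 and 5.71 in KO and 5.86, 5.41 and 5.94 in WT (-0.32, adjusted p = 0.98). Each of these pairs of groups shared part of its range.
Defb15 read 5.06, 5.79 and 5.23 in KO and 5.62, 4.92 and 6.34 in WT (-0.26, adjusted p = 0.97). Defb21 was detected on 1 spermatocyte array, the third of WT, and read 4.66, 4.56 and 4.81 in KO and 4.75, 5.20 and 5.62 in WT (adjusted p = 0.783). Defb45 was likewise detected on the third WT array alone, with 5.26, 5.52 and 5.32 in KO and 4.98, 5.44 and 6.12 in WT (adjusted p = 0.988). For Defb21 and Defb45 no fold is given, because the WT mean lay below the lowest detected level.

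Defb14 and Defb19 varied most between the KO spermatocyte arrays. Defb14 read 8.91, 6.69 and 7.54 in KO and 7.54, 8.04 and 8.79 in WT (-0.41, adjusted p = 0.984), and its difference was -1.01 without KO replicate 1. Defb19 read 11.76, 8.12 and 9.58 in KO and 10.43, 11.22 and 10.66 in WT. Its difference of -0.95 (adjusted p = 0.897) became -1.92 (adjusted p = 0.0552) without KO replicate 1 and -0.10 (adjusted p = 0.973) without KO replicate 2. On the same KO arrays the mean over the Leydig cell markers was 11.996, 7.48 and 9.52. On the WT arrays it was 10.04, 10.68 and 9.67. The highest and the lowest KO arrays were thus the same for Defb19 and the Leydig mean. This also held in WT round spermatids, whereas WT spermatocytes shared the highest array only. KO round spermatids shared neither, with Leydig means of 7.62, 5.83 and 7.05 and Defb19 at 9.29, 9.97 and 10.19. The mean over 8 Sertoli cell markers, Defb19 left out, was 7.00, 6.62 and 6.51 on the KO spermatocyte arrays. The part of these cells in the Defb19 signal was not tested.

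**Figure D3:**
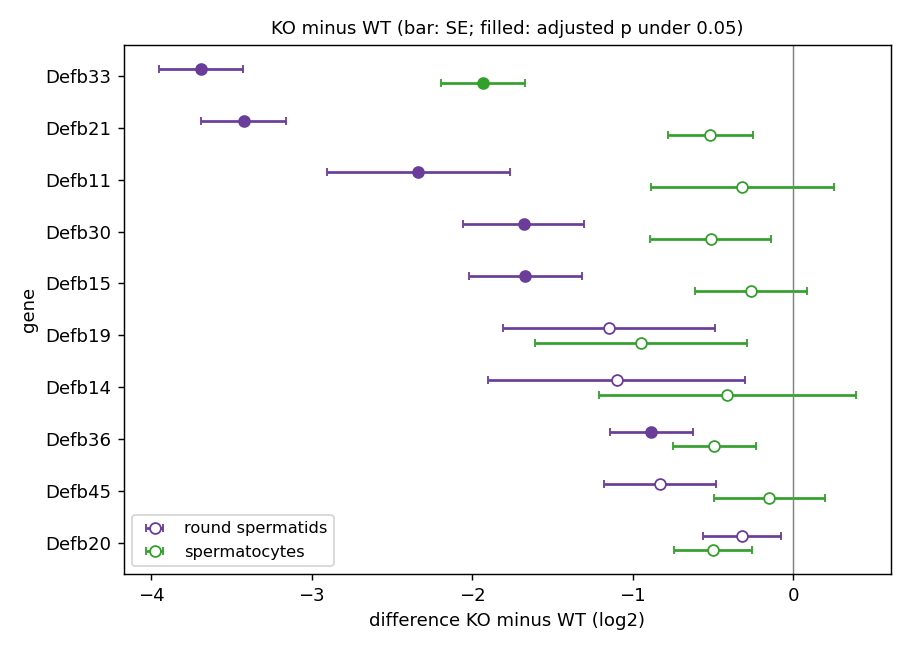
Log2 difference KO minus WT (x axis) of the 10 tested Defb genes in round spermatids and spermatocytes, with the SE of the limma fit as bars and filled points where the adjusted p was under 0.05. All fitted differences are negative, and Defb33 is the gene that passed in both stages.

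The difference of the KO effect between the stages was tested in the same fit. It passed for 2 of the 10 genes, Defb33 (-1.76, SE 0.37, adjusted p = 0.0406) and Defb21 (-2.91, SE 0.37, adjusted p = 0.00289), both with the larger fitted fall in round spermatids, while 1.31% of all features passed in this direction. Defb21 entered this test too only through WT round spermatids and was below detection on 5 of the 6 spermatocyte arrays, so its value describes fitted signals near background and its call was set by the selection. The call for Defb33 was lost with no detection filter (adjusted p = 0.0716) and without each single array other than KO round spermatid replicate 1 or WT spermatocyte replicate 3 (adjusted p 0.0532 to 0.128), and its value was -2.37 with cyclic loess. With the replicate number as a block, the numbers pairing the stages of a genotype, 4 genes passed, with Defb11 (-2.02, adjusted p = 0.0101) and Defb15 (-1.41, adjusted p = 0.0393) added. For Defb30 the difference was -1.16 (adjusted p = 0.332), and for Defb36 -0.39 (adjusted p = 0.668).

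Comparing round spermatids with spermatocytes asks how the genes change from meiosis to the haploid stage. In WT 9 of the 10 genes were higher in round spermatids, against 28.4% of all features. The arrays did not overlap for 8 of them, against 30.9% of all features. The median difference was 1.92 over the 10 genes and -0.12 over all features. Cyclic loess moved the latter to 0.09, raised Defb33 from 3.26 to 3.87 and left the 9 calls in place.

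Defb33 was 9.60-fold higher in WT round spermatids (log2 difference 3.26, SE 0.26, adjusted p = 3.79e-06). Defb30 was 6.62-fold higher (2.73, adjusted p = 7.78e-05) and Defb11 6.05-fold (2.60, adjusted p = 0.0018). Defb11 was below detection on WT spermatocyte replicate 2, and its log2 difference was 1.38 on the authors' processed intensities, so its fold is uncertain. Defb21 had a fitted log2 difference of 2.70 (adjusted p = 9.42e-06) and Defb45 one of 1.74 (adjusted p = 0.000958), but each was detected on 1 of the 3 WT spermatocyte arrays, so the size is uncertain and no fold is given. Defb21 passed the filter only through WT round spermatids, so its place among the 9 was set by the selection. Defb45 passed it only through the round spermatids of both genotypes, so the filter favoured its rise. Smaller rises were those of Defb36 (1.87, adjusted p = 8.01e-05) and Defb15 (1.58, adjusted p = 0.00196). These 7 genes were called with any 1 array left out. On the authors' processed intensities the differences were smaller, such as 1.24 for Defb21 and 0.67 for Defb15, and still passed. Defb14 (1.98, adjusted p = 0.0486) and Defb20 (0.61, adjusted p = 0.0439) were near the threshold. Defb14 was lost without WT round spermatid replicate 2 (1.40, adjusted p = 0.186) and without each of 5 other arrays. Defb20 overlapped between the stages and was lost with the replicate block (adjusted p = 0.0678), without WT round spermatid replicate 3 (0.45, adjusted p = 0.17) and without each of 7 other arrays. Defb19 did not pass (0.20, adjusted p = 0.812).

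In KO 5 genes were higher in round spermatids, against 26.4% of all features, and the arrays did not overlap for 5, against 30.3%. These were Defb30 (1.56, adjusted p = 0.00462), Defb33 (1.51, adjusted p = 0.000709), Defb36 (1.48, adjusted p = 0.00073), Defb45 (1.06, adjusted p = 0.0235) and Defb20 (0.79, adjusted p = 0.0168). Defb45 was detected on none of the KO spermatocyte arrays, and its rise was at least 1.75-fold. Because Defb45 passed the filter only through round spermatids, the filter favoured this rise. Without KO spermatocyte replicate 3, Defb20 (adjusted p = 0.0649) and Defb45 (adjusted p = 0.0615) were lost, which left 3 calls. Both were also lost without KO round spermatid replicate 2 (adjusted p = 0.0667 and 0.0971), where Defb14 passed (2.21, adjusted p = 0.0264), and Defb45 was lost without KO round spermatid replicate 3 (adjusted p = 0.0963). With the replicate block 7 genes passed, with Defb11 (0.58, adjusted p = 0.0367) and Defb14 (1.29, adjusted p = 0.0259) added. Defb21 was below detection in both stages, and its difference was -0.20. Defb19 had a difference of -0.0014, which was 0.97 without KO spermatocyte replicate 1 and -0.85 without KO spermatocyte replicate 2. The median was 0.92 over the 10 genes and 0.01 over all features. The WT and KO values of a gene share no arrays.

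**Figure D4:**
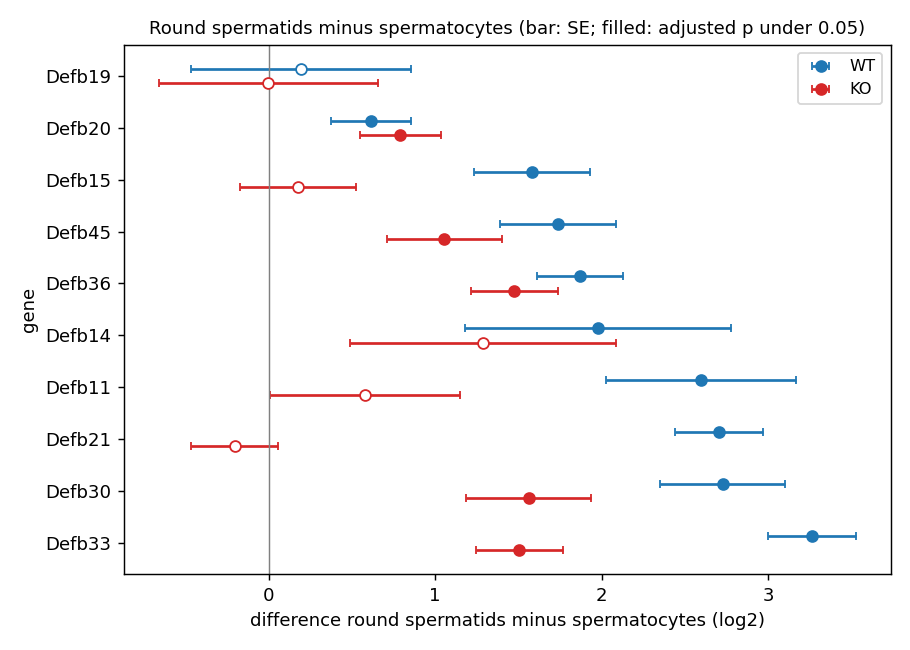
Log2 difference round spermatids minus spermatocytes (x axis) of the 10 tested Defb genes in WT and KO, with the SE of the limma fit as bars and filled points where the adjusted p was under 0.05. In WT 9 genes passed, with Defb33 at 3.26, and in KO 5 passed, with none above 1.56.

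The order of the group means had WT round spermatids first in each of the 10 genes. For Defb33 the WT spermatocytes followed at 9.72 ± 0.31 (SD, n = 3), then the KO round spermatids at 9.29 ± 0.45 and the KO spermatocytes at 7.78 ± 0.39. The arrays of the second and the third of these groups overlapped in part. For Defb30 and Defb36 the KO round spermatids came second, at 7.79 ± 0.60 and 8.63 ± 0.53 (SD, n = 3), above the WT spermatocytes at 6.75 ± 0.80 and 7.64 ± 0.24. For Defb36 the arrays of these groups did not overlap, and for Defb30 they did.

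Signals of several members moved together over the 12 direct arrays. Pearson's r was 0.93 for Defb30 and Defb36, 0.92 for Defb11 and Defb15 and for Defb36 and Defb45, and 0.91 for Defb21 and Defb33, whereas Defb19 and Defb30 gave 0.17. The points share 4 groups and the same arrays, so these values describe the pattern of the groups and carry no test. The named genes nearest in pattern to Defb33 were Ripor2 (0.99), Cdrt4 (0.99) and Ccr6 (0.98). Those nearest to Defb21 were Dclk1, 4930412O13Rik and Decr2 (0.98 each), and those nearest to Defb30 were Camkk2, Dusp21 and Clec4b1 (0.98 each).
Cst12, Adipoq and 4933400A11Rik were nearest to Defb36 (0.97 to 0.98), and Gm11149, Rpf2 and 1700072I22Rik to Defb45 (0.96 to 0.97). Alkbh3 was among the nearest of both Defb11 (with Gm9495 and Dnah7a) and Defb15 (with Cnr1 and Gm906), at 0.95 to 0.96. For Defb14 they were Csmd1, Msr1 and Rragd (0.90 to 0.93), for Defb19 Amy2a5, Mcrip2 and Gamt (0.90 to 0.92), and for Defb20 Otop2, 3110009E18Rik and Naca (0.90 to 0.91).

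The measured genes that flank the clusters did not pass in KO round spermatids. They were chosen by position after values had been seen. Beside the chromosome 2 cluster these were 6820408C15Rik (0.21, adjusted p = 0.561) and H13, a signal peptide peptidase (-0.26, adjusted p = 0.489). On chromosome 8 they were Mcph1 (0.08, adjusted p = 0.817), 6820431F20Rik (-0.03, adjusted p = 0.953) and Ccdc70 (-0.65, adjusted p = 0.183), and on chromosome 14 Ints6 (0.52, adjusted p = 0.134) and the protease gene Ctsb (1.49, adjusted p = 0.173).

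Of a list of beta-defensin receptors and partners, 8 of 9 genes are on the array and 1, Ccr6, was measured. Ccr6 read 6.42, 6.47 and 6.20 in KO and 9.05, 8.54 and 8.85 in WT round spermatids. The arrays lay wide apart (-2.45, SE 0.25, adjusted p = 3.99e-05). In spermatocytes Ccr6 was lower in KO too (-1.32, adjusted p = 0.0307), and there no KO array detected it (at least 1.91-fold). Its chemokine ligand Ccl20 and the receptors Ccr2 and Tlr4 were not detected on any direct array. Of 8 alpha-defensin genes on the array 0 were measured.

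Of a list of other host defence and lysozyme-family genes of the male tract, 21 of 46 on the array were measured. In KO round spermatids 7 were lower and 0 higher, against 7.99% and 6.89% of all features, with a median of -0.63. The 3 with the smallest p were Bpifa3, of the bactericidal/permeability-increasing family (-7.68, at least 131-fold, adjusted p = 4.21e-07), and the protease inhibitor genes Wfdc10 (-1.14, adjusted p = 0.00177) and Wfdc6a (-1.04, adjusted p = 0.00777). In spermatocytes 1 of the 21, Bpifa3, was lower in KO and 0 were higher. In WT 12 of the 21 were higher and 3 lower in round spermatids than in spermatocytes, against 28.4% and 31.9% of all features. The 12 include Lyzl1, Lyzl4, Lyzl6, Spaca3, Spaca5, Lyz1 and Lyz2, the last of which is also a macrophage marker here. Another of the 12, Bpifb3, was detected on no direct spermatocyte array and passed the filter only through round spermatids. Among the 22 not detected on any direct array were the epididymal defensin-like genes Spag11a and Spag11b.

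Markers of other cells were set beside the family. Of 12 epididymal genes on the array 9 were not detected on any direct array, among them Lcn5, Lcn8, Lcn9, Lcn10 and Adam7. Of the 2 measured, Ros1 was lower in KO round spermatids, none of whose arrays detected it (at least 2.03-fold, adjusted p = 0.000283). Among the direct arrays only those of WT round spermatids detected Ros1. It passed the filter only through them, so its call was set by the selection. The other measured gene, Cst11, was detected on every direct array and did not pass in KO round spermatids (-0.21, adjusted p = 0.461). The mean of both measured genes was 5.80 to 5.97 on KO and 6.54 to 6.78 on WT round spermatid arrays, and 5.44 to 5.64 on KO and 5.72 to 5.91 on WT spermatocyte arrays.
Of 8 measured Sertoli cell markers 2 were lower in KO round spermatids, Cst12 (-1.22, adjusted p = 0.017) and Cst9 (-1.38, adjusted p = 0.0173), and 0 were higher. The shares over all features were 7.99% lower and 6.89% higher. Amh, Gata1 and Fshr were not detected. The mean of the 8 measured markers was 7.59 to 8.38 on KO and 7.89 to 8.38 on WT round spermatid arrays. In WT 6 of the 8 were higher in round spermatids than in spermatocytes, against 28.4% of all features. The spermatocyte arrays had means of 7.03 to 7.39 in WT and 6.51 to 7.00 in KO. The 6 include Dhh, which passed the filter only through WT round spermatids, so its call was set by the selection. Rhox5, also among the 6, passed it only through round spermatids of both genotypes. In WT 8 of 9 macrophage markers were likewise higher in round spermatids, against the same 28.4% of all features. The means over the 9 were 6.73 to 7.44 on those arrays and 5.15 to 5.91 in WT spermatocytes, and 7.15 to 8.46 and 5.06 to 6.07 in KO. The 8 include H2-Aa, which no direct WT array of either stage detected. C1qa, C1qc, Cd74 and Csf1r, also among the 8, passed the filter only through round spermatids, so the filter favoured their rise.
In KO against WT round spermatids 1 macrophage marker rose, H2-Aa (at least 1.55-fold, adjusted p = 0.0059), and none fell. Among the direct arrays only those of KO round spermatids detected H2-Aa. It passed the filter only through them, so its call was set by the selection. The round spermatid markers had 1 of 9 lower, Tnp2 (-0.82, adjusted p = 0.0151), and 0 higher, with means of 12.75 to 13.16 in KO and 13.06 to 13.15 in WT. Of 4 peritubular and endothelial markers 1 fell, Vwf (-1.25, adjusted p = 0.00862), and of 6 spermatogonial markers 1 rose, Elavl2 (1.01, adjusted p = 0.0398). The shares over all features in this comparison were 7.99% lower and 6.89% higher. No spermatocyte marker (of 10) and no Leydig cell marker (of 5) passed. The part of these cells in the beta-defensin signals was not tested.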

How the data were processed

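The deposited non-normalized intensity of each probe and array and its deposited detection p-value were used, per the file headers. The authors' processed intensity table, quantile-normalized by its values, served as an alternative. The scanner software and bead summarization are not given in the sources used here. Intensities of all 24 arrays were processed with neqc (limma 3.58.1, R 4.3.3, offset 16), which subtracts background through the detection p-values. A probe was kept when 3 or more of the 12 direct arrays had a detection p under 0.01 (17401 of 45281, 38.4%). A gene is its probe of highest mean, which gave 12705 features. Limma (lmFit, eBayes, residual degrees of freedom 8) compared the 4 groups without a block, and Benjamini-Hochberg adjustment ran over all features. The model was tested on simulated data. Where the lower group had no detected array, "at least" gives the higher group's mean against the lowest detected level of each array. The number of arrays limits the precision, and 3 fractionations of pooled mice per group measure the spread between fractionations.

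By the labels, spermatocytes and round spermatids of 1 genotype and number share a fractionation (residual correlations -0.20 to 0.41, median 0.22). Those of KO and WT do not pair (-0.34 to 0.08). Members and lists were chosen with earlier results of these data known. Named genes are every Defb gene detected on a direct array, the 3 genes nearest in pattern, and up to 3 members of each list that passed in round spermatids. Alternatives were cyclic loess, the authors' values, no detection filter, every probe, all 6 arrays, groups alone, a replicate block and each array left out. Probe and protein sequences were not analysed here.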

Additional observations from a re-analysis of the deposited data

Results flagged for a closer look

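For 2 beta-defensin genes the interaction term of the limma fit, the difference of the KO effect between the stages, had an adjusted p under 0.05. For Defb21 the interaction term was -2.9079 (SE 0.37, adjusted p = 0.00289). Defb21 was detected on 1 of the 6 spermatocyte arrays and on none of the KO round spermatid arrays, so this value rests on fitted signals near background and is no measured difference of effects. Defb21 also passed the filter only through WT round spermatids, so its call was set by the selection. For Defb33 the KO minus WT difference was -3.69 in round spermatids and -1.93 in spermatocytes, a difference of -1.7571 (SE 0.37, adjusted p = 0.0406). All 12 direct arrays detected Defb33, but its call was lost with no detection filter (adjusted p = 0.0716). That call was also lost without each single array other than KO round spermatid replicate 1 or WT spermatocyte replicate 3. The cause of either difference was not tested.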

How the results depend on the processing

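With a detection p under 0.05, 18 genes of the family were detected in place of 11. Leaving out 1 array at a time gave 3 to 7 genes changed between KO and WT round spermatids (6 with all), 3 to 5 between the stages in KO (5 with all) and 1 to 2 in the difference of the KO effect between the stages (2 with all). The latter count was 1 with no detection filter, where the adjusted p of Defb33 was 0.0716, and 4 with all 6 arrays per group or with the replicate block. KO against WT spermatocytes gave 5 lower genes with all 6 arrays per group (1 without), where mixtures count as replicates and 15.7% of all features were lower. No setting reversed a called difference. Over 50 tested differences (10 genes in 5 comparisons) cyclic loess and every probe on its own each kept all 50 calls as they were, the authors' values 48, no filter 45, the replicate block 44 and all 6 arrays 41. Of 600 differences with 1 array left out 39 lost their call and 2 gained one. The cause was not tested. On the authors' values 46 of 50 differences were smaller. Signal over background limits the folds of Defb11, Defb15, Defb20, Defb21 and Defb45, which were below detection on some arrays.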

Other observations

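The mixed arrays entered no comparison above. On them Defb33 read 8.91 to 9.13 in KO and 12.54 to 12.77 in WT round spermatids, and 6.80 to 7.07 in KO and 9.21 to 10.86 in WT spermatocytes. Defb21 read 4.35, 4.57 and 4.45 in KO and 8.31, 7.28 and 7.93 in WT round spermatids. Apart from measurement error a mixture of 2 RNA samples lies between them. Of 120 values of the 10 tested genes on the 12 mixed arrays 50 lay between those of the labelled pair. On WT spermatocyte replicate 5, labelled as a mixture of replicates 2 and 3, 9 of 10 genes lay above both. On KO spermatocyte replicate 6, labelled as a mixture of replicates 1 and 3, 8 of 10 lay below both, among them Defb19 at 8.20 against 11.76 and 9.58. Defb1, Defb5 and Defb41 were each detected on 1 mixed array and on no direct array.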
